A study of Lycium barbarum and Lycium ruthenicum with 30 samples.

Results

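Green fruit of black wolfberry (*Lycium ruthenicum*, LR) was compared with green fruit of red wolfberry (*Lycium barbarum*, LB) at S2, the second of 5 sampled stages of fruit development. The comparison used 6 of the 30 libraries of the series, 3 from LR (LR2-1 to LR2-3) and 3 from LB (LB2-1 to LB2-3), each made from fruit of 1 tree. Both groups are labelled as wild-type fruit with no treatment. The LR shrubs grew wild near Ejina in Inner Mongolia and the LB shrubs were cultivated and watered in a nursery in Ningxia, which means that the effects of species, site and irrigation cannot be told apart. The level of each unigene, a cluster of assembled transcripts that stands for a gene, was deposited as FPKM, which counts fragments relative to transcript length and to the mapped fragments of the library. Of 326276 unigenes, 65431 reached an FPKM of 1 in 3 or more of these libraries and were tested. Unigenes have no genome position, since the assembly was made without a genome.

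The sample titles give the opposite species to the column codes B and R. The codes were followed, because the supplement prints the S2 values of 7 unigenes by species, and 42 of the 42 match the columns when species are read from the codes, against 0 when they are read from the titles. The fruit label was not checked against tissue markers, since the annotation used here names none. All 18 listed photosynthesis unigenes passed the filter in this green tissue. The study chose that list on these libraries, so this is no check of the fruit label.

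A green berry is still photosynthetic and still growing, and its red or black colour comes later. Red wolfberries accumulate carotenoids and black wolfberries accumulate anthocyanins, a class of flavonoids. Flavonoids and lignin share a source: the phenylpropanoid pathway, which turns phenylalanine into coumaroyl-CoA, from where carbon goes either to flavonoids or, through hydroxycinnamoyl esters and reductases, to the monolignols that peroxidases join into lignin. Monolignols can also be stored as glucosides, which beta-glucosidases split.

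The 2 fruits already differed widely at S2. A unigene was called at a limma adjusted p under 0.01 and a difference of at least 1 in log2 (FPKM + 0.5), LR minus LB, a scale that shrinks the differences of low unigenes. Of the 65431 unigenes, 28685 (43.8%) were called, 9732 (14.9%) as higher and 18953 (29%) as lower in LR. Of these, 753 were higher and 1040 lower in LR by at least 5 on the log2 scale. In 41276 unigenes (63.1%) the 3 LR libraries did not overlap the 3 LB libraries. The calls of any group below are to be read against these shares. Unigenes picked from a pathway list or a larger enzyme class by the size of their difference had to have groups that did not overlap. For these, lack of overlap is a rule of naming and not a result. In whole fruit, fewer cells of a type and less RNA per cell cannot be told apart.

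The share of lower calls depended on the scale. The median difference over all unigenes was -0.56, and 51 unigenes that each held 1% or more of a library's FPKM summed to 55.0%, 42.1% and 42.5% of the FPKM in LR2-1, LR2-2 and LR2-3, against 20.4%, 19.1% and 16.6% in LB2-1, LB2-2 and LB2-3. With median-of-ratios scaling the median was -0.07, with 12352 (18.9%) called higher and 13601 (20.8%) lower in LR. Without the 51 unigenes and after rescaling, the median was 0.04, with 13213 higher and 12814 lower. No called unigene changed direction between the deposited and the median-of-ratios scale. The scaling moved differences by too little to carry a call to the opposite threshold, so this was fixed in advance. Of the calls, 9711 higher and 13601 lower ones were shared by both scales. Differences are given below on the deposited scale, with the scaled counts beside each group.

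**Figure D1:**
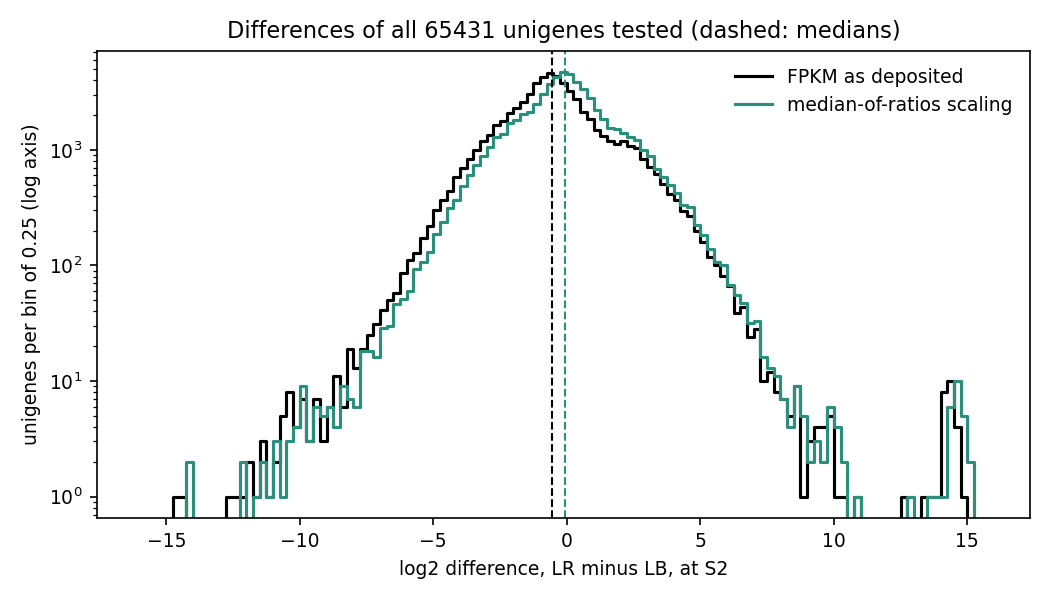
Number of unigenes per bin (y axis, log scale) by the difference between LR and LB at S2 in log2 (FPKM + 0.5) (x axis), over the 65431 unigenes tested, as deposited (black) and with median-of-ratios scaling (green), with dashed lines at the medians. The deposited values are centred at -0.56 and the scaled ones at -0.07, and a separate small group of unigenes lies near the highest difference of 14.99.

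Libraries of 1 species were close to each other. Over the tested unigenes, Pearson's r of log2 (FPKM + 0.5) was 0.873 to 0.895 between LR libraries, 0.917 to 0.933 between LB libraries and 0.475 to 0.544 between the species, a description across unigenes, which are not replicates. LR2-1 stood apart by its share of abundant unigenes, and 59194 to 62882 unigenes reached an FPKM of 1 in LR, against 65676 to 68342 in LB. From the steps between low values, 1 read was worth 1.28 to 1.39 times as much FPKM in the LR libraries as in LB2-1, and 1 to 1.06 times in the LB libraries, so fewer mapped reads stood behind a given FPKM in LR.

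Most of the S2 difference was also called at other stages. Of the unigenes higher in LR at S2, 72.6% were called higher at S1, 75.1% at S3, 64.2% at S4 and 71.2% at S5, where 12.8%, 14.2%, 11.7% and 14.9% of all tested unigenes were called higher. Of those lower in LR, 68.9%, 76.2%, 77.7% and 67.4% were called lower at S1, S3, S4 and S5, against 26.4%, 32.4%, 36% and 27% of all tested unigenes. At all 5 stages 5008 unigenes (51.5% of the higher ones) were higher and 9125 (48.1% of the lower ones) were lower in LR. At S2 and no other stage, 1053 (10.8%) were called higher and 1470 (7.76%) lower.

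Part of the difference lay between unigenes of 1 assembled component, a set of transcripts that Trinity joined because they share sequence. Of 14591 components with at least 2 tested unigenes, 1721 (11.8%) held unigenes called in opposite directions, and these held 15.0% of all called unigenes. In 4208 unigenes every LR library was at 1 FPKM or more and every LB library was listed at 0, and in 41.8% of them another unigene of the component was at 1 or more in every LB library. In 5952 unigenes the LR libraries were listed at 0 and the LB libraries at 1 or more, with such a partner in LR in 41.9%. The sum of FPKM over the component is therefore given below where it turned the sign of a named unigene or changed its call. Over 118 named unigenes, the sum turned the sign in 13, ended the call in 20 and gave a call in 1. Whether such forms are alleles, paralogues or pieces of a transcript was not tested.

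The largest differences were in unigenes that the annotation used here does not name. TRINITY_DN65867_c1_g1 was at 126284, 54802 and 72331 FPKM in LR, against 0, 58.0 and 0 FPKM in LB (difference 14.99, SE 1.46, adjusted p = 5.4e-09), and TRINITY_DN74000_c1_g1 differed by 14.73 (SE 1.08, adjusted p = 4.1e-11). TRINITY_DN71192_c10_g1 was listed at 0 in the 3 LR libraries, against 14521, 18628 and 7565 FPKM in LB (difference -14.63, SE 0.60, adjusted p = 1.8e-15), and TRINITY_DN91991_c3_g2 differed by -14.46 (SE 0.91, adjusted p = 2.9e-12). The most abundant unigene of both fruits, TRINITY_DN85098_c26_g1, was at 109723, 229861 and 138239 FPKM in LR and at 159705, 149428 and 84678 FPKM in LB. Its groups overlapped and it was not called (difference 0.26, SE 0.61, adjusted p = 0.73).

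The phenylpropanoid list of the study holds 113 unigenes with an enzyme name, of which 96 were tested. In LR 17 of 27 beta-glucosidases, all 4 coniferyl-aldehyde dehydrogenases and the 1 cinnamoyl-CoA reductase were called lower, and all 4 phenylalanine ammonia-lyase unigenes were called higher. In all, 17 were called higher and 33 lower in LR, together 52.1% beside the 43.8% of all tested unigenes, with a median of -0.31 beside -0.56. With median-of-ratios scaling 23 were higher and 27 lower, and the median turned to 0.21. Of the 17 higher on the deposited scale, 11.8%, 82.4%, 35.3% and 35.3% were called higher at S1, S3, S4 and S5. The shares over all unigenes higher at S2 were 72.6%, 75.1%, 64.2% and 71.2%. At S1, 3 of the 17 were called lower. Of the 33 lower ones, 60.6%, 87.9%, 69.7% and 60.6% were called lower at these stages, beside 68.9%, 76.2%, 77.7% and 67.4%, and 1 was called higher at S5. The study chose the list on these libraries, so the counts are a description. The count of higher calls depended on the estimate of spread and on single libraries. In a fit to the 6 libraries alone it was 6, with 31 lower. That fit keeps the differences but takes the spread from these libraries only, with 4 residual degrees of freedom. Without LB2-3 the count was 7, with 31 lower.

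**Figure D2:**
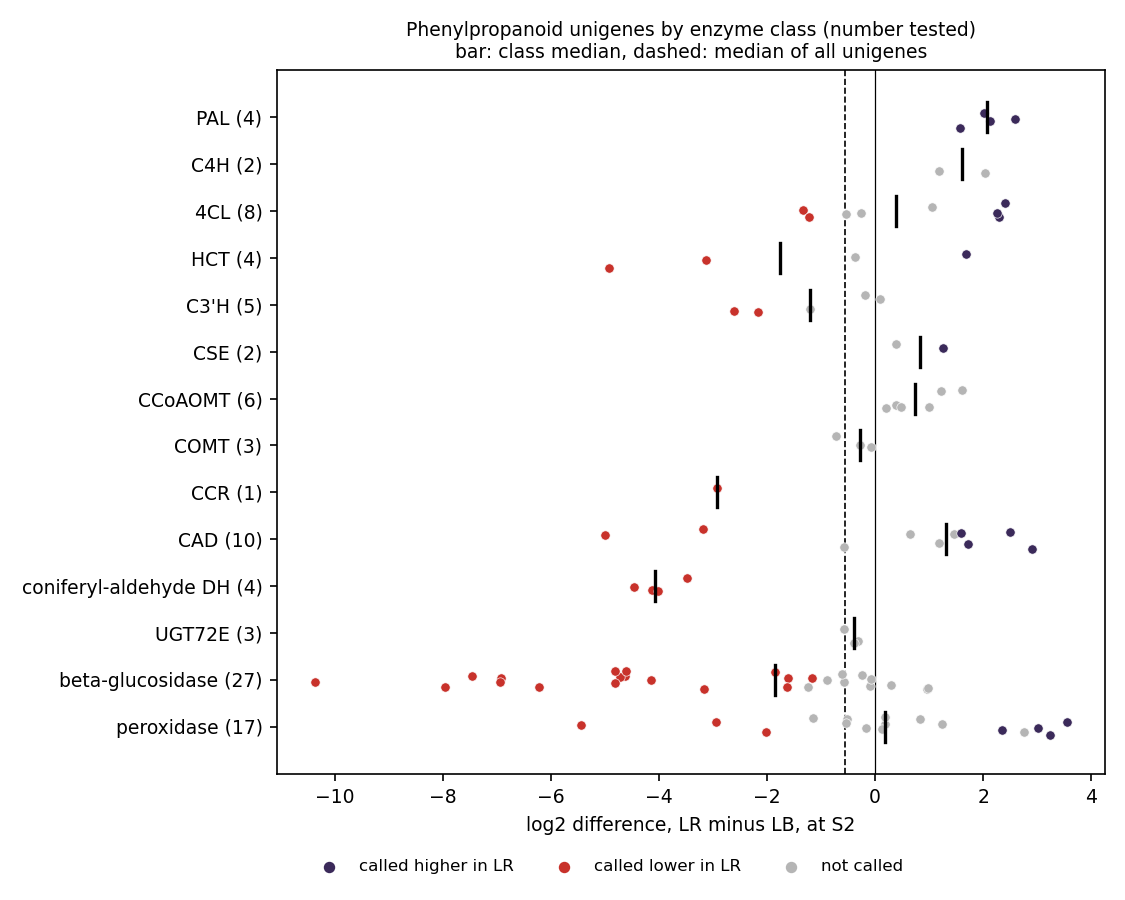
Difference between LR and LB at S2 in log2 (FPKM + 0.5) (x axis) of each tested phenylpropanoid unigene (points, dark where called higher in LR, red where called lower, grey where not called) by enzyme class in pathway order (y axis), with a bar at the class median and a dashed line at the median of all unigenes, -0.56. The 17 called beta-glucosidases lie below 0, down to -10.37, and the 4 PAL unigenes lie between 1.57 and 2.59.

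Entry into the pathway is through phenylalanine ammonia-lyase (PAL), which removes ammonia from phenylalanine. All 4 listed PAL unigenes were called higher in LR, also with scaling. TRINITY_DN66948_c1_g4 was at 24.5, 31.9 and 39.8 FPKM in LR, against 7.40, 4.16 and 3.58 FPKM in LB (difference 2.59, SE 0.44, adjusted p = 2.3e-05). TRINITY_DN91492_c2_g1, the most abundant of them, was at 67.6, 140 and 137 FPKM in LR, against 41.7, 26.03 and 13.7 FPKM in LB (difference 2.12, SE 0.60, adjusted p = 0.0046). TRINITY_DN65745_c2_g1 and TRINITY_DN100508_c2_g5 differed by 2.02 (SE 0.54) and 1.57 (SE 0.49), with adjusted p of 0.0027 and 0.0086. The groups did not overlap in any of the 4, but TRINITY_DN91492_c2_g1, TRINITY_DN65745_c2_g1 and TRINITY_DN100508_c2_g5 lost their call under 5, 3 and 8 of 15 alternatives.

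The components of these PAL unigenes did not all follow them. The component of TRINITY_DN66948_c1_g4 summed to 56.4, 60.3 and 156 FPKM in LR, against 301, 314 and 402 FPKM in LB, a difference of -2.05 (SE 0.54, adjusted p = 0.0031) with the opposite sign. The components of TRINITY_DN65745_c2_g1 and TRINITY_DN100508_c2_g5 differed by -0.10 and -0.95 and were not called (adjusted p = 0.90 and 0.13). TRINITY_DN91492_c2_g1 is the only unigene of its component. So a higher PAL level in LR holds for these 4 unigenes and not for the sum of the PAL-bearing components.

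Cinnamate 4-hydroxylase (C4H), the cytochrome P450 that adds the first hydroxyl group, was not called in its 2 unigenes, which differed by 1.19 (SE 0.45, adjusted p = 0.029) and 2.03 (SE 0.71, adjusted p = 0.018). Both were called higher with scaling. Of 8 unigenes of 4-coumarate-CoA ligase (4CL), which activates the acids with coenzyme A, 3 were called higher and 2 lower in LR. TRINITY_DN94968_c1_g1 was at 31.4, 81.2 and 58.2 FPKM in LR, against 21.3, 15.1 and 3.27 FPKM in LB (difference 2.30, SE 0.58, adjusted p = 0.0017). The other called higher, TRINITY_DN66802_c1_g1 and TRINITY_DN88770_c1_g6, differed by 2.396 (SE 0.70) and 2.25 (SE 0.69). All 3 match a 4CL2 or 4CL2-like enzyme of other Solanaceae in the annotation, and they lost their call under 3, 5 and 6 of 15 alternatives. TRINITY_DN88770_c1_g1 and TRINITY_DN88770_c1_g3 have such matches too, but differed by -0.54 and -0.26 and were not called. The components of TRINITY_DN66802_c1_g1 and TRINITY_DN88770_c1_g6 differed by 1.57 and 1.46 and were not called (adjusted p = 0.040 and 0.043). The 2 called lower, TRINITY_DN98066_c0_g4 (-1.33, SE 0.26) and TRINITY_DN88753_c0_g1 (-1.23, SE 0.36), match 4CL-like proteins and were not called with scaling.

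In the ester branch, shikimate O-hydroxycinnamoyltransferase (HCT) joins coumaroyl-CoA to shikimate. Its unigenes were split by form. TRINITY_DN90116_c2_g1, which matches a hydroxycinnamoyl transferase of pepper, was at 59.2, 129 and 80.0 FPKM in LR, against 51.6, 25.2 and 13.7 FPKM in LB (difference 1.68, SE 0.51, adjusted p = 0.0073), a call lost under 6 of 15 alternatives and in its component (1.58, adjusted p = 0.012). TRINITY_DN98829_c5_g2 was at 0, 0.11 and 0 FPKM in LR, against 9.30, 18.5 and 22.7 FPKM in LB (difference -4.93, SE 0.35, adjusted p = 1.9e-11). TRINITY_DN66566_c5_g7 was listed at 0 in the LR libraries, against 3.61, 3.53 and 4.56 FPKM in LB (difference -3.13, SE 0.18, adjusted p = 5.9e-13). The groups of these 3 did not overlap. The 2 lower ones best match a deacetylvindoline O-acetyltransferase-like protein and an acyltransferase, members of the same enzyme family that need not act on shikimate, and the component of TRINITY_DN66566_c5_g7 was not called (-0.67, adjusted p = 0.50). Of the other two, TRINITY_DN89303_c1_g3 was not called (-0.38, SE 0.58, adjusted p = 0.60), although its component was higher in LR by 2.85 (SE 0.56, adjusted p = 0.00020), and TRINITY_DN52017_c0_g2 did not pass the filter.

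Of 5 tested unigenes of the coumaroylshikimate 3'-hydroxylase, a cytochrome P450 of the CYP98 family, TRINITY_DN97146_c3_g6 (-2.61, SE 0.51, adjusted p = 0.00014) and TRINITY_DN88632_c1_g2 (-2.18, SE 0.57, adjusted p = 0.0025) were called lower. Both were below 5 FPKM in every library, the second was not called with scaling, and their components differed by 0.24 and 0.23 and were not called. Caffeoylshikimate esterase, which frees caffeic acid, had 1 of 2 unigenes called higher: TRINITY_DN99848_c3_g5 was at 69.9, 173 and 129 FPKM in LR, against 78.1, 43.8 and 32.3 FPKM in LB (difference 1.26, SE 0.37, adjusted p = 0.0057). Its groups overlapped, and the call was lost under 5 of 15 alternatives and in its component (0.85, adjusted p = 0.043).

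The methyltransferases that make the coniferyl and sinapyl units were not called. The 6 tested unigenes of caffeoyl-CoA O-methyltransferase differed by 0.19 to 1.599, and the 3 of caffeic acid O-methyltransferase by -0.72 to -0.08, with 0 of either enzyme at an unadjusted limma p under 0.05. TRINITY_DN69336_c2_g1, a caffeic acid O-methyltransferase, was at 100, 263 and 242 FPKM in LR and at 393, 328 and 224 FPKM in LB. Its groups overlapped.

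The reductases and dehydrogenases of the monolignols differed in both directions. Cinnamoyl-CoA reductase, the first enzyme committed to monolignols, has 1 listed unigene: TRINITY_DN84683_c0_g2 was at 8.23, 40.7 and 16.2 FPKM in LR, against 136, 168 and 117 FPKM in LB (difference -2.94, SE 0.57, adjusted p = 0.00013). Coniferyl-aldehyde dehydrogenase, which oxidises the aldehyde to ferulic acid and so draws it away from lignin, was called lower in LR in all 4 unigenes, with a median of -4.08. TRINITY_DN91848_c1_g4 was at 10.4, 8.66 and 6.22 FPKM in LR, against 134, 121 and 221 FPKM in LB (difference -4.13, SE 0.32, adjusted p = 9.6e-11). TRINITY_DN72438_c0_g2 was at 2.28, 6.63 and 36.3 FPKM in LR, against 185, 137 and 304 FPKM in LB (difference -4.46, SE 0.66, adjusted p = 3.7e-06). The groups did not overlap in the reductase or in any of the 4 dehydrogenases. The unigenes TRINITY_DN91848_c1_g2, TRINITY_DN91848_c1_g3 and TRINITY_DN91848_c1_g4 are of 1 component and not independent, TRINITY_DN91848_c1_g3 lost its call under 2 of 15 alternatives, and all 4 match aldehyde dehydrogenase family 2 member C4 of other plants.

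Cinnamyl-alcohol dehydrogenase (CAD), which makes the alcohols, was called higher in 4 and lower in 2 of 10 unigenes. TRINITY_DN94308_c2_g4 was at 5.41, 10.8 and 8.60 FPKM in LR, against 1.24, 0.87 and 0.93 FPKM in LB (difference 2.49, SE 0.39, adjusted p = 6.9e-06), and TRINITY_DN94308_c2_g5 differed by 2.90 (SE 0.43, adjusted p = 4.4e-06). Their shared component summed to 133, 83.5 and 110 FPKM in LR and to 152, 98.5 and 173 FPKM in LB and was not called (-0.36, adjusted p = 0.51). TRINITY_DN69029_c0_g2 was listed at 0 in LR, against 15.3, 20.2 and 11.9 FPKM in LB (difference -4.99, SE 0.30, adjusted p = 1.3e-12). The other lower one, TRINITY_DN79928_c2_g1, differed by -3.19 (SE 0.52, adjusted p = 1.6e-05), while TRINITY_DN79928_c2_g2 of its component was higher in LR by 1.72 (SE 0.44, adjusted p = 0.0019), a call lost under 4 of 15 alternatives. The component they form was lower in LR by 1.64 on the log2 scale, at 11.02, 7.72 and 6.81 FPKM in LR, against 27.8, 33.5 and 21.2 FPKM in LB. Several of these unigenes best match an 8-hydroxygeraniol dehydrogenase-like protein, a relative of CAD that works on terpene alcohols, so the enzyme name is uncertain.

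Beta-glucosidases held 17 of the 33 lower calls of the pathway. Of 27 unigenes 17 were called lower and 0 higher in LR, with a median of -1.85 beside the -0.56 of all unigenes, and with scaling 14 were lower and 0 higher. Their FPKM summed to 207, 146 and 249 in LR2-1, LR2-2 and LR2-3, against 7230, 10719 and 11052 in LB2-1, LB2-2 and LB2-3. The difference was concentrated in unigenes that best match beta-glucosidase 11-like proteins, a grouping made after the values were seen: 11 of 12 were called lower, with a median of -5.52, and they held 145, 56.2 and 173 FPKM in LR, against 7089, 10588 and 10951 FPKM in LB. The 4 that best match a lysosomal beta-glucosidase differed by -0.58 to 0.30 and 0 were called. They held 26.9, 41.7 and 40.6 FPKM in LR and 60.5, 41.9 and 32.2 FPKM in LB, and these sums overlapped.

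The beta-glucosidase 11-like unigene with the largest difference, TRINITY_DN80120_c0_g3, was at 32.8, 0 and 0 FPKM in LR, against 1982, 3132 and 3129 FPKM in LB (difference -10.37, SE 1.23, adjusted p = 1.4e-07). TRINITY_DN100868_c4_g3 was at 22.5, 0.66 and 18.6 FPKM in LR, against 1420, 2410 and 2290 FPKM in LB (difference -7.96, SE 1.04, adjusted p = 5.9e-07). TRINITY_DN77905_c2_g2 was at 2.06, 1.39 and 4.21 FPKM in LR, against 379, 570 and 583 FPKM in LB (difference -7.47, SE 0.60, adjusted p = 2.2e-10). In these 3 every LB library lay above every LR library, as their naming required. Their calls were kept under all 15 alternatives, and their components differed by -7.01, -7.53 and -5.20. LR2-1 held all of the LR signal of TRINITY_DN80120_c0_g3.

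Coniferyl-alcohol glucosyltransferase, which makes the glucosides that beta-glucosidases split, was not called in its 3 unigenes, which differed by -0.57 to -0.33, with 0 at an unadjusted p under 0.05.

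Peroxidases, a large family of which some join monolignols in the cell wall, were split. Of 31 listed unigenes 17 were tested, 4 were called higher and 3 lower in LR. TRINITY_DN67843_c3_g3, a peroxidase 64-like form, was at 2.81, 3.15 and 21.6 FPKM in LR, against 0.10, 0 and 0.05 FPKM in LB (difference 3.55, SE 0.61, adjusted p = 2.7e-05), although its component differed by 0.16 and was not called (adjusted p = 0.82). TRINITY_DN65784_c0_g1, also 64-like, differed by 3.02 (SE 0.59, adjusted p = 0.00013) and TRINITY_DN87965_c1_g3, 3-like, by 3.23 (SE 0.80, adjusted p = 0.0014), a call lost under 2 of 15 alternatives and in its component (1.88, adjusted p = 0.028). TRINITY_DN65507_c0_g1, which matches a lignin-forming anionic peroxidase, was at 0.21, 0.07 and 0 FPKM in LR, against 32.3, 19.9 and 24.6 FPKM in LB (difference -5.45, SE 0.44, adjusted p = 2.3e-10). Lack of overlap was required for naming these 4. TRINITY_DN75475_c1_g2 and TRINITY_DN64541_c0_g2 were called lower in LR, with differences of -2.94 and -2.01. The component of TRINITY_DN75475_c1_g2 differed by -0.28 and was not called (adjusted p = 0.61). The peroxidase measured by qPCR in the study, TRINITY_DN75127_c1_g1, was not called (-1.16, SE 0.74, adjusted p = 0.19).

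**Figure D3:**
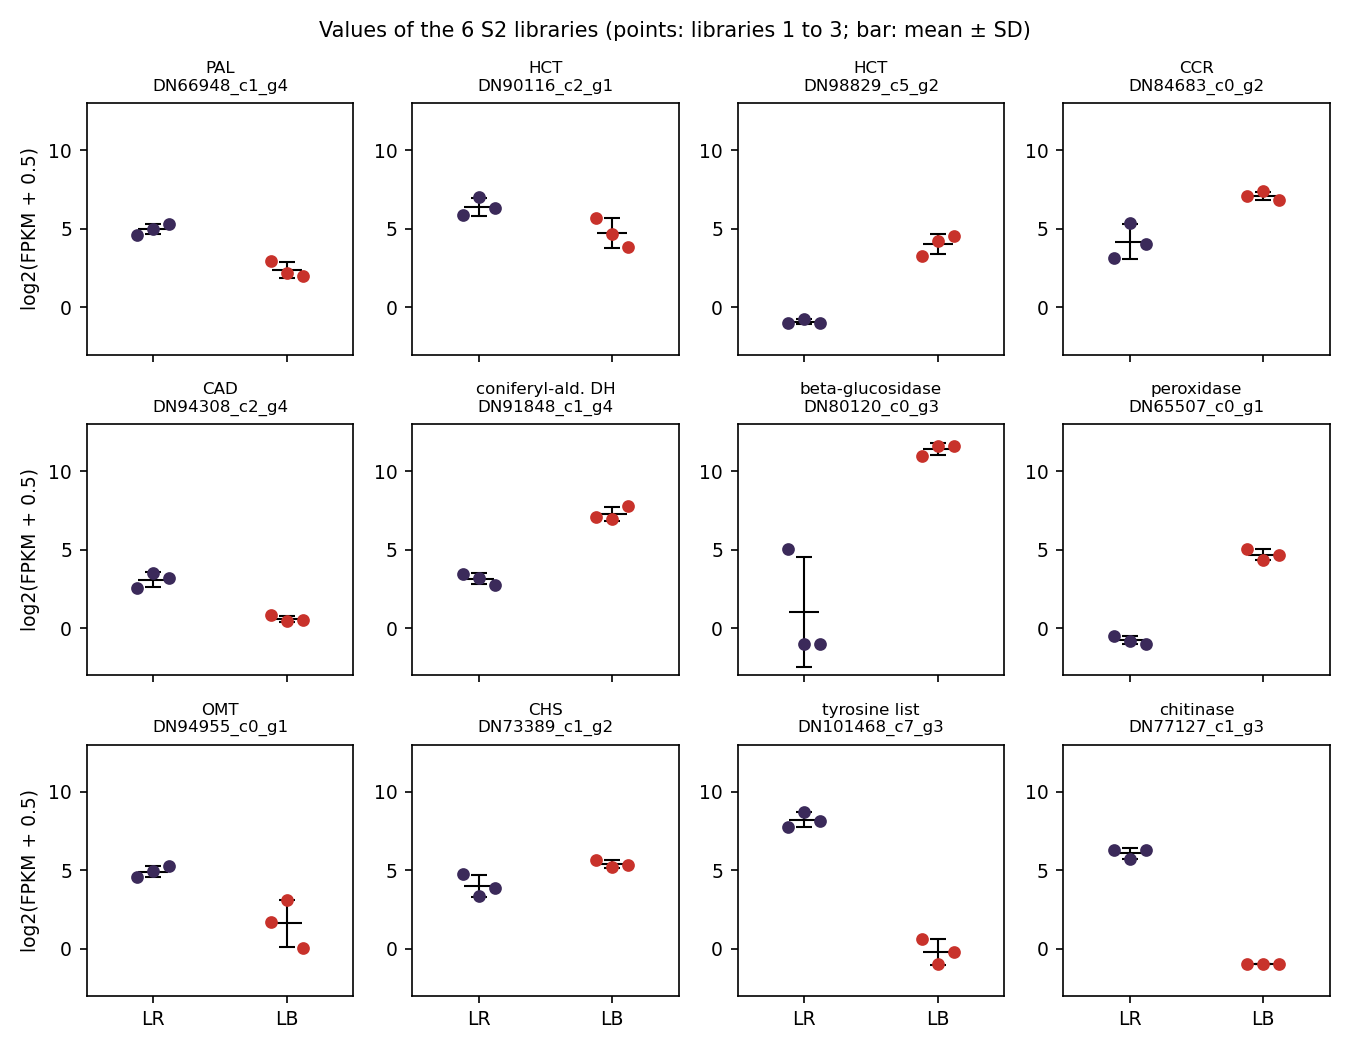
Level in log2 (FPKM + 0.5) (y axis) of 12 selected unigenes, each in its own panel, in the 3 LR libraries (dark points) and the 3 LB libraries (red points), with bars for the mean and SD. Beta-glucosidase TRINITY_DN80120_c0_g3 separates the species most among the phenylpropanoid unigenes, by -10.37, with LR2-1 above the other two LR libraries.

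Of the named anthocyanin unigenes 1 was called between the fruits at S2. Chalcone synthase (CHS, TRINITY_DN73389_c1_g2), the first enzyme of flavonoids, was at 26.9, 9.84 and 13.98 FPKM in LR and at 50.3, 35.9 and 39.5 FPKM in LB (difference -1.39, SE 0.64, adjusted p = 0.069). Dihydroflavonol 4-reductase (DFR, TRINITY_DN65703_c4_g1), which makes leucoanthocyanidins, was at 39.1, 36.2 and 36.4 FPKM in LR and at 23.3, 37.7 and 36.4 FPKM in LB (difference 0.22, SE 0.50, adjusted p = 0.72). Leucoanthocyanidin dioxygenase (LDOX, TRINITY_DN68066_c0_g2), which makes anthocyanidins, was at 42.4, 18.5 and 28.4 FPKM in LR and at 38.2, 66.7 and 67.6 FPKM in LB (difference -0.97, SE 0.55, adjusted p = 0.13). None of these 3 unigenes was called, and the groups overlapped in DFR and LDOX but not in CHS. The LDOX component was called lower in LR: it summed to 49.2, 26.8 and 37.1 FPKM in LR, against 60.7, 90.0 and 90.2 FPKM in LB (difference -1.10, SE 0.32, adjusted p = 0.0067). A DFR paralogue, TRINITY_DN65703_c4_g2, differed by 0.32 (SE 0.51, adjusted p = 0.61). The flavonoid O-methyltransferase (OMT, TRINITY_DN94955_c0_g1), an enzyme type that decorates anthocyanins, was the exception: it was at 22.9, 29.8 and 37.5 FPKM in LR, against 2.75, 7.88 and 0.52 FPKM in LB (difference 3.31, SE 0.74, adjusted p = 0.00058).

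In the flavonoid list 3 of 18 tested unigenes were called higher and 0 lower in LR, with 7 at an unadjusted p under 0.05, and with scaling 6 were higher. The median was 0.77. Of the list, 7 unigenes are also in the phenylpropanoid list, 38.9% of the flavonoid list and 6.19% of the other. TRINITY_DN89303_c1_g1 was at 28.8, 42.6 and 45.1 FPKM in LR, against 2.85, 4.23 and 4.85 FPKM in LB (difference 3.13, SE 0.58, adjusted p = 6.2e-05), and TRINITY_DN71952_c0_g1 differed by 3.03 (SE 0.73, adjusted p = 0.0011). In the flavone and flavonol list 1 of 13 was higher and 4 were lower, or 2 and 2 with scaling. Its member TRINITY_DN101118_c0_g1 was at 6.09, 7.30 and 5.48 FPKM in LR, against 26.6, 35.7 and 45.1 FPKM in LB (difference -2.40, SE 0.39, adjusted p = 1.4e-05).

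The pathway lists that follow come from the study, which chose them on these libraries for change between stages. Only part of each list could be read and its members carry no enzyme names, so each list is described by its counts and leading unigenes. The unigenes of all lists together, 470 with the phenylpropanoids, included 418 that were tested. Of these 179 were called, beside 28685 of all 65431 unigenes tested (43.8%).

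**Figure D4:**
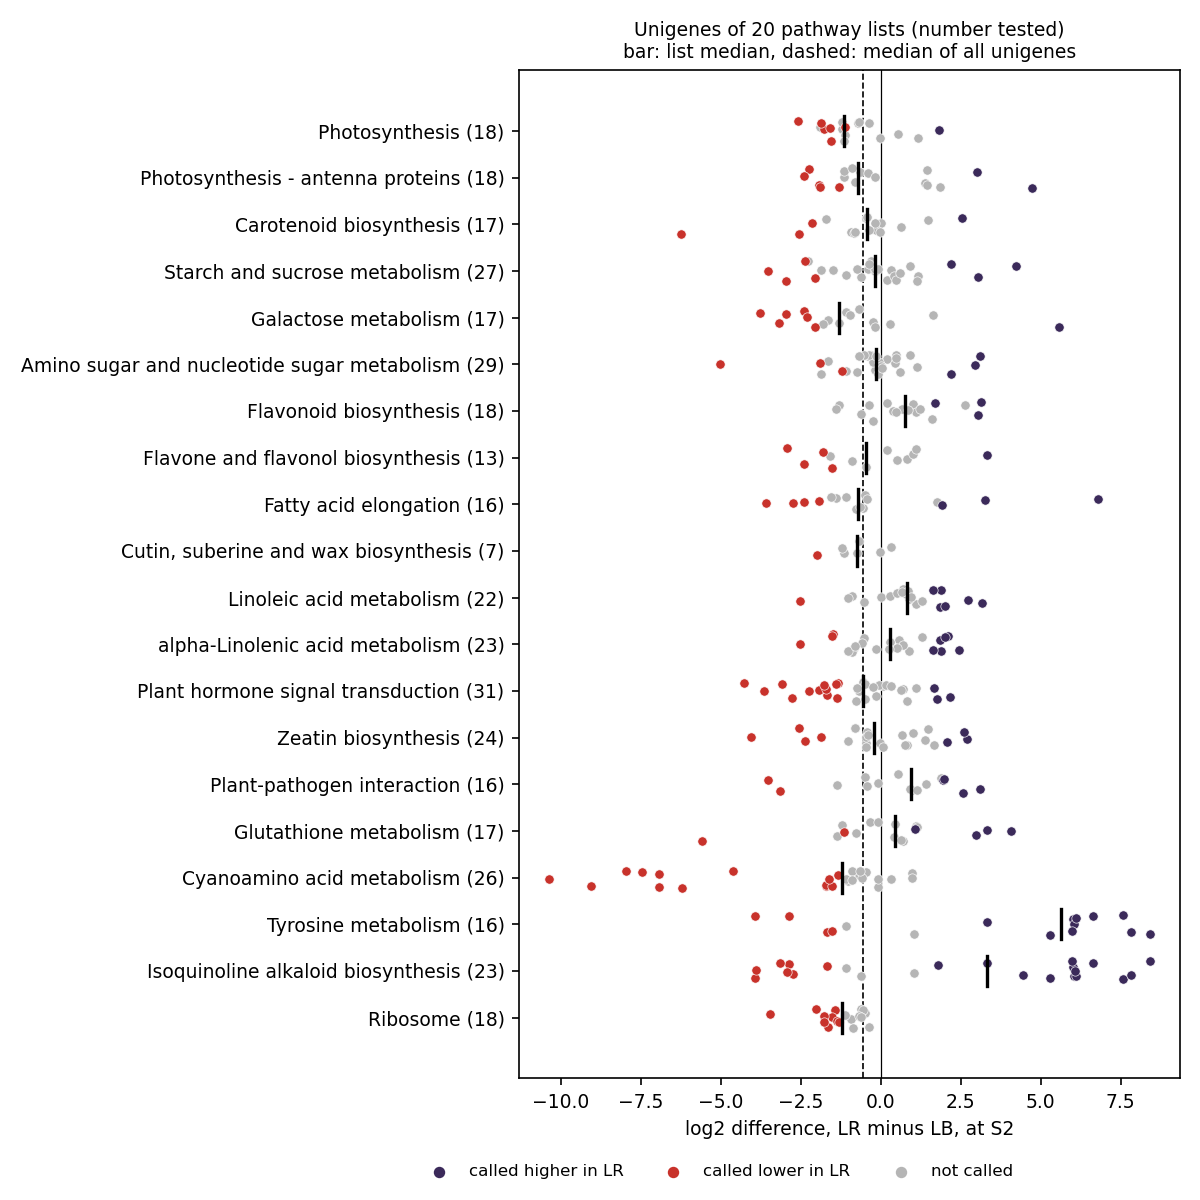
Difference between LR and LB at S2 in log2 (FPKM + 0.5) (x axis) of each tested unigene (points, dark where called higher in LR, red where called lower, grey where not called) by pathway list (y axis), with a bar at the list median and a dashed line at the median of all unigenes. Tyrosine metabolism reaches from -3.92 to 8.41 with a median of 5.63, and all 18 ribosome unigenes lie below 0.

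Tyrosine metabolism had the highest median difference of the lists. This pathway turns tyrosine into phenolic amines and quinones, and it feeds the isoquinoline alkaloids. Of 16 tested unigenes 10 were called higher and 4 lower in LR, with a median of 5.63, and with scaling 11 were higher and 3 lower. Their FPKM summed to 1301, 1924 and 1535 in LR, against 266, 258 and 291 in LB. TRINITY_DN101468_c7_g3 was at 215, 423 and 283 FPKM in LR, against 1.06, 0 and 0.35 FPKM in LB (difference 8.41, SE 1.06, adjusted p = 3.7e-07), and TRINITY_DN75505_c2_g2 was at 265, 392 and 317 FPKM in LR, against 3.81, 0.05 and 0.70 FPKM in LB (difference 7.82, SE 0.84, adjusted p = 2.8e-08). Lack of overlap was required for naming them, and the components of both were higher in LR by 6.79 and 7.88. Of the lower ones, TRINITY_DN100322_c1_g1 was at 1.27, 2.12 and 8.89 FPKM in LR, against 47.1, 52.3 and 60.0 FPKM in LB (difference -3.92, SE 0.43, adjusted p = 3.7e-08), and TRINITY_DN100322_c2_g2 differed by -2.88 (SE 0.36, adjusted p = 3.0e-07). The isoquinoline alkaloid list, with 13 higher and 7 lower of 23 tested, shares 16 unigenes with it, 94.1% of the tyrosine and 66.7% of the isoquinoline list.

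Cyanoamino acid metabolism, which includes the release of cyanide from glucosides, was called lower in 13 and higher in 0 of 26 tested unigenes, with a median of -1.22, and in 11 with scaling. Its FPKM summed to 453, 742 and 728 in LR, against 9068, 13189 and 13705 in LB. Of its 27 unigenes 14 are the phenylpropanoid beta-glucosidases already described, 51.9% of this list and 12.4% of the other. TRINITY_DN100868_c4_g1, which is not in the phenylpropanoid list, was at 2.30, 1.99 and 4.09 FPKM in LR, against 1046, 2029 and 2258 FPKM in LB (difference -9.05, SE 0.54, adjusted p = 1.0e-12). It shares its component with beta-glucosidase TRINITY_DN100868_c4_g3.

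The plastid lists leaned lower in LR on the deposited scale, as did all tested unigenes, with 29% called lower and 14.9% higher. In photosynthesis 1 of 18 unigenes was called higher and 6 were called lower, but 2 and 4 with median-of-ratios scaling and 3 and 1 after rescaling without the abundant unigenes, so the lean flipped. TRINITY_DN98252_c3_g4 was at 34.1, 59.4 and 48.6 FPKM in LR, against 339, 323 and 203 FPKM in LB (difference -2.60, SE 0.47, adjusted p = 5.5e-05), and TRINITY_DN77957_c4_g1 was at 50.9, 77.2 and 42.6 FPKM in LR, against 16.9, 17.2 and 12.1 FPKM in LB (difference 1.82, SE 0.34, adjusted p = 7.9e-05). The component of TRINITY_DN77957_c4_g1 differed by 0.76 and was not called (adjusted p = 0.048). Antenna proteins, which bind chlorophyll and gather light, had 2 higher and 5 lower of 18, or 2 and 3 with median-of-ratios scaling and 3 and 3 after rescaling. TRINITY_DN71505_c0_g1 was at 18.3, 19.3 and 22.5 FPKM in LR, against 1.32, 0 and 0 FPKM in LB (difference 4.74, SE 0.42, adjusted p = 1.3e-09). TRINITY_DN78016_c2_g1 was at 99.8, 220 and 249 FPKM in LR, against 918, 1006 and 657 FPKM in LB (difference -2.26, SE 0.39, adjusted p = 3.1e-05).

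Carotenoid biosynthesis, the source of the red pigment of LB, was called higher in 1 and lower in 3 of 17 tested unigenes, or 2 and 2 with scaling. TRINITY_DN92833_c0_g2 was at 3.51, 1.96 and 0 FPKM in LR, against 181, 148 and 77.8 FPKM in LB (difference -6.24, SE 0.79, adjusted p = 4.3e-07), and TRINITY_DN97949_c0_g1 was at 10.5, 12.2 and 28.7 FPKM in LR, against 91.2, 102 and 89.7 FPKM in LB (difference -2.57, SE 0.41, adjusted p = 1.3e-05). The one called higher, TRINITY_DN101266_c4_g3, differed by 2.52 (SE 0.30, adjusted p = 1.9e-07), and its component by -1.37 with no call. Lack of overlap was required for naming these 3. The 4 unigenes shared with the zeatin list are 22.2% of the carotenoid and 11.4% of the zeatin list.

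The starch and amino sugar lists had smaller shares called than all tested unigenes, and galactose metabolism, with 7 of 17, was near the 43.8% of all. Starch and sucrose metabolism had 3 higher and 4 lower of 27 tested unigenes, or 5 and 3 with scaling. TRINITY_DN68847_c0_g1 was at 55.6, 282 and 76.3 FPKM in LR, against 29.3, 1.43 and 2.66 FPKM in LB (difference 4.24, SE 0.67, adjusted p = 1.0e-05), and TRINITY_DN83924_c3_g1 was listed at 0 in LR, against 4.17, 5.95 and 5.90 FPKM in LB (difference -3.53, SE 0.24, adjusted p = 9.8e-12), a call lost in its component (-1.43, adjusted p = 0.042). Galactose metabolism had 1 higher and 6 lower of 17, or 2 and 5 with scaling. TRINITY_DN94597_c1_g1 was at 16.8, 6.41 and 9.83 FPKM in LR, against 193, 62.7 and 263 FPKM in LB (difference -3.78, SE 0.77, adjusted p = 0.00022). Its higher member, TRINITY_DN88532_c0_g5, was at 26.04, 28.4 and 17.5 FPKM in LR and listed at 0 in LB (difference 5.58, SE 0.34, adjusted p = 1.3e-12), while its component differed by 0.77 and was not called (adjusted p = 0.14). Amino sugar metabolism, which shares 14 unigenes with the starch list, had 3 higher and 3 lower of 29, or 5 and 1 with scaling.

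Lipid lists included the oxylipin routes, by which linoleic and alpha-linolenic acid become signals such as jasmonate. Linoleic acid metabolism had 6 higher and 1 lower of 22 tested unigenes, with a median of 0.82, and 7 and 1 with scaling. TRINITY_DN95597_c15_g2 was at 39.6, 28.7 and 23.1 FPKM in LR, against 1.57, 3.95 and 3.63 FPKM in LB (difference 3.17, SE 0.47, adjusted p = 4.0e-06), while its component differed by 0.68 and was not called (adjusted p = 0.27). Alpha-linolenic acid metabolism had 6 higher and 3 lower of 23, or 7 and 1 with scaling, and shares 12 unigenes with the linoleic list. Its abundant member TRINITY_DN97261_c2_g2 was at 235, 247 and 184 FPKM in LR, against 81.3, 55.2 and 29.0 FPKM in LB (difference 2.11, SE 0.64, adjusted p = 0.0070), a call lost under 6 of 15 alternatives and in its component (0.70, adjusted p = 0.37). Fatty acid elongation had 3 higher and 4 lower of 16, or 4 and 1 with scaling. Its TRINITY_DN92129_c3_g1 was at 82.7, 133 and 80.9 FPKM in LR, against 0.63, 0 and 0.66 FPKM in LB (difference 6.80, SE 0.51, adjusted p = 5.6e-11). In the cutin, suberine and wax list 0 of 7 were higher and 1 was lower, TRINITY_DN77055_c1_g2 (difference -2.01, SE 0.42, adjusted p = 0.00025).

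Hormone signalling had 3 higher and 12 lower of 31 tested unigenes, or 4 and 7 with median-of-ratios scaling and 6 and 6 after rescaling. Its median of -0.57 was close to the -0.56 of all unigenes. TRINITY_DN96146_c3_g3 was at 2.02, 1.87 and 1.49 FPKM in LR, against 37.3, 41.0 and 54.4 FPKM in LB (difference -4.27, SE 0.58, adjusted p = 1.0e-06), and TRINITY_DN94241_c2_g4 was at 24.2, 36.1 and 23.2 FPKM in LR, against 8.98, 7.32 and 7.05 FPKM in LB (difference 1.75, SE 0.38, adjusted p = 0.00038). The component of TRINITY_DN94241_c2_g4 differed by 0.67 and was not called (adjusted p = 0.14). Zeatin biosynthesis, the making of cytokinins, had 3 higher and 4 lower of 24, or 7 and 3 with scaling. TRINITY_DN70125_c0_g3 was at 0.99, 3.56 and 0.83 FPKM in LR, against 27.4, 30.2 and 44.4 FPKM in LB (difference -4.07, SE 0.65, adjusted p = 1.0e-05), while its component differed by -0.87 and was not called (adjusted p = 0.12).

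Ribosomal unigenes were called lower in 9 and higher in 0 of 18, or in 5 and 0 with scaling, with a median of -1.22. TRINITY_DN81860_c2_g1 was at 4.54, 12.6 and 17.1 FPKM in LR, against 121, 88.9 and 143 FPKM in LB (difference -3.47, SE 0.42, adjusted p = 1.8e-07). The FPKM of the list summed to 2015, 3996 and 3321 in LR, against 7398, 6152 and 6294 in LB. The sums did not overlap, and LR2-1, the library with the largest share of abundant unigenes, was the lowest.

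Defence lists gave more higher than lower calls. Plant-pathogen interaction had 4 higher and 2 lower of 16 tested unigenes, or 8 and 2 with scaling, and a median of 0.95. Its largest difference was nevertheless downward: TRINITY_DN89104_c1_g3 was at 0, 0 and 0.16 FPKM in LR, against 9.11, 3.33 and 6.34 FPKM in LB (difference -3.53, SE 0.45, adjusted p = 5.2e-07). Glutathione metabolism, which serves detoxification and redox balance, had 4 higher and 2 lower of 17, or 7 and 1 with scaling. TRINITY_DN67649_c2_g3 was at 11.3, 22.7 and 16.2 FPKM in LR, against 0.68, 0.28 and 0.54 FPKM in LB (difference 4.07, SE 0.50, adjusted p = 2.1e-07). TRINITY_DN81207_c3_g2 was at 14.01, 6.44 and 4.63 FPKM in LR, against 324, 431 and 410 FPKM in LB (difference -5.59, SE 0.48, adjusted p = 5.5e-10). Lack of overlap was required for naming these 3.

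The study named a set of defence and growth genes for their difference between these libraries, so their values are a description. Chitinase (TRINITY_DN77127_c1_g3), which breaks down fungal cell walls, was at 76.7, 50.7 and 76.4 FPKM in LR and listed at 0 in LB. The EIX receptor (TRINITY_DN95128_c2_g1), which senses a fungal xylanase in tomato, was at 1.7, 3.82 and 7.65 FPKM in LR and listed at 0 in LB. The resistance protein RPM1 (TRINITY_DN73733_c4_g1), which guards a target of bacterial effectors in Arabidopsis, was at 12.9, 16.2 and 25.4 FPKM in LR, against 0, 0.02 and 0 FPKM in LB. In these 3 the groups did not overlap, and their differences were 7.07, 3.09 and 5.15. Glutathione S-transferase (GST, TRINITY_DN100219_c3_g1), of a family that carries flavonoids to the vacuole, was at 5.32, 5.57 and 5.66 FPKM in LR, against 0, 0.35 and 0 FPKM in LB. Phosphoglycerate kinase (PGK, TRINITY_DN74949_c3_g2), an enzyme of glycolysis and carbon fixation, was at 31.96, 58.0 and 58.3 FPKM in LR and listed at 0 in LB, but its component summed to 56.1, 87.1 and 95.0 FPKM in LR and to 51.0, 56.3 and 63.9 FPKM in LB, a difference of 0.44 with no call (SE 0.28, adjusted p = 0.20). The components of chitinase, the EIX receptor, RPM1 and GST were called higher in LR.

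In the same limma fit, the S2 difference was tested against the average of the other stages. That average is the mean of the differences at S1, S3, S4 and S5. A call says that S2 departs from this average, not that it departs from each other stage. Of 65431 unigenes 1433 (2.19%) were called, 627 (0.958%) with an S2 difference above that average and 806 (1.23%) below it. Among the 627 the median difference was -0.07, 1.28, -0.76, -1.53 and -1.24 from S1 to S5, and among the 806 it was -0.70, -2.70, -0.21, 0 and 0, which describes the calls and adds no test. Without LR2-1, the library that stood apart, the balance turned, with 828 above and 605 below. The count was 780 without LR2-2, 853 without LB2-2 and 914 without LB2-3, each with more below than above. Of the 418 tested unigenes of the lists 57 were called. The study chose the pathway lists for change between stages on these libraries, which favours calls in this test, so the count is a description. The phenylpropanoid list had 4 above and 9 below, 8 of the 9 being beta-glucosidases, the tyrosine list 7 above and 0 below, the cyanoamino acid list 1 above and 9 below, and the flavonoid list 1 above and 5 below, while the ribosome list had 0 in either direction, with 0 at an unadjusted p under 0.05.

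**Figure D5:**
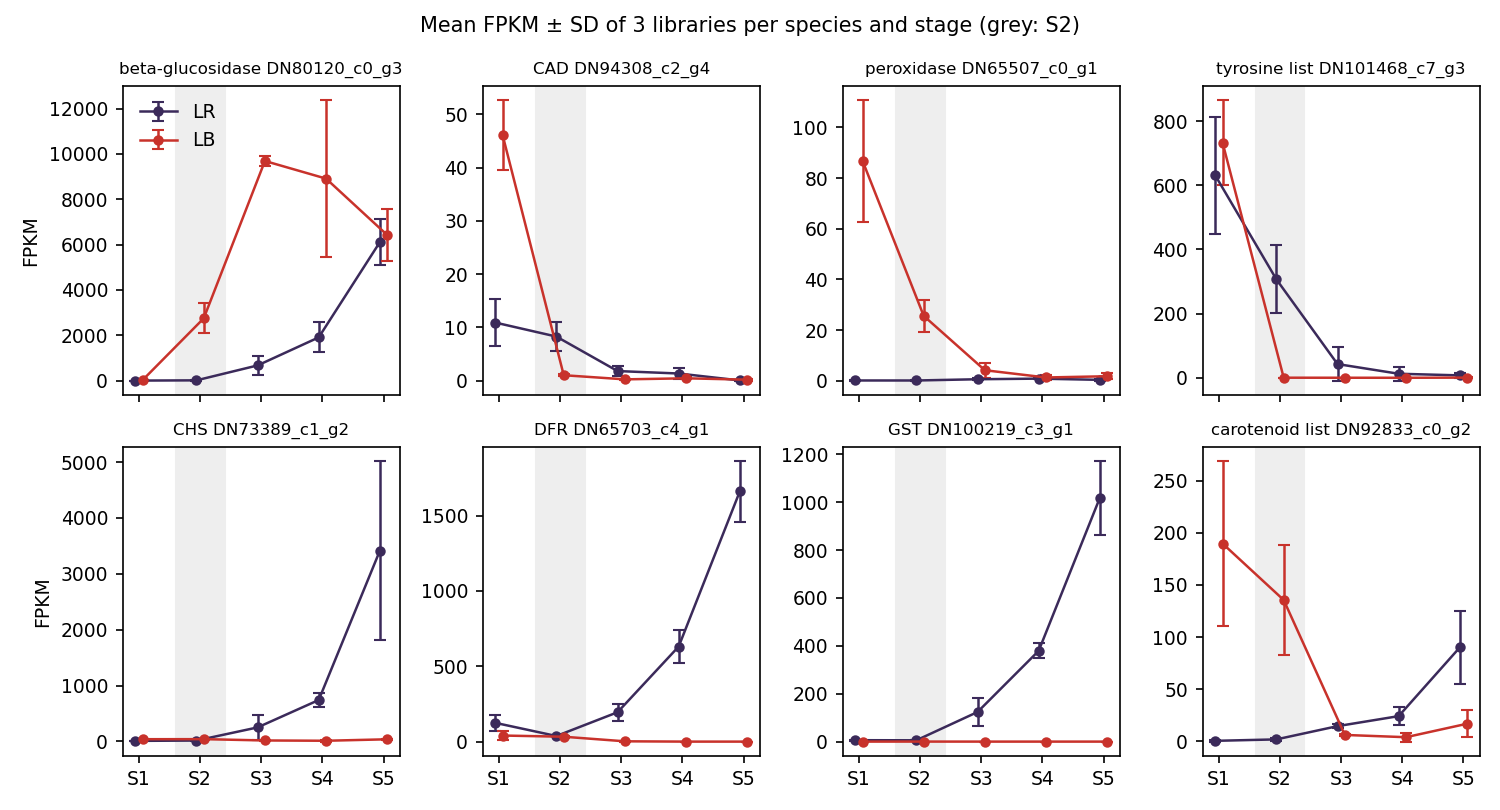
Mean FPKM (y axis, linear) of 8 selected unigenes from S1 to S5 (x axis) in LR (dark) and LB (red), with SD bars over 3 libraries and S2 shaded. Beta-glucosidase TRINITY_DN80120_c0_g3 averaged 10.9 FPKM in LR and 2747 FPKM in LB at S2, and the DFR unigene TRINITY_DN65703_c4_g1 averaged 37.2 FPKM in LR and 32.5 FPKM in LB at S2, and 1662 FPKM in LR and 0 FPKM in LB at S5.

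The S2 difference of 8 beta-glucosidases was called below the average of the other stages. Of these, 7 had means of 1.12 to 31.99 FPKM in LR at S2 and 19.9 to 690 FPKM in LR at S3. Their means in LB were 201 to 2992 FPKM at S2 and 921 to 9685 FPKM at S3. The eighth, TRINITY_DN68507_c0_g2, was low throughout, with 1.27 FPKM in LR and 4.75 FPKM in LB at S2 and 1.28 FPKM in LR and 1.75 FPKM in LB at S3. Beta-glucosidase TRINITY_DN81046_c5_g1 departed upward, by 2.67, and both were named after their values were seen. TRINITY_DN80120_c0_g3 averaged 0, 10.9, 669, 1906 and 6108 FPKM from S1 to S5 in LR, against 21.8, 2747, 9685, 8908 and 6420 FPKM in LB, and its S2 difference lay below the average of the other stages by 7.82 on the log2 scale (SE 1.37, adjusted p = 0.00098). TRINITY_DN77905_c2_g2 averaged 0.62, 2.55, 62.3, 131 and 673 FPKM in LR, against 2.37, 511, 1864, 1305 and 1544 FPKM in LB (S2 departure -4.85, SE 0.67, adjusted p = 7.5e-05). Both departures were kept under all 14 alternatives of this test. Changes between stages within a species were not tested. TRINITY_DN94597_c1_g1 of galactose metabolism also departed downward, with 11.5, 11.02, 421, 843 and 1783 FPKM in LR, against 3.49, 173, 2077, 1901 and 961 FPKM in LB (S2 departure -3.90, SE 0.87, adjusted p = 0.0078). This call was lost under 7 of 14 alternatives.

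The anthocyanin genes also departed downward, with LR above LB in the means of DFR at each other stage and a DFR difference of 0.22 at S2. The study named the anthocyanin genes for their rise in LR at the later stages of these libraries. That favours calls in this test, so their departures are a description. DFR averaged 125, 37.2, 195, 631 and 1662 FPKM from S1 to S5 in LR, against 40.4, 32.5, 2.07, 0.067 and 0 FPKM in LB, and its difference at S2 lay below the average of the other stages by 7.31 on the log2 scale (SE 0.56, adjusted p = 9.5e-09). LDOX and CHS departed by -7.09 (SE 0.61, adjusted p = 6.8e-08) and -5.0 (SE 0.72, adjusted p = 0.00011). LDOX averaged 12.4, 29.7, 303, 919 and 2948 FPKM in LR, against 5.42, 57.5, 12.6, 3.29 and 1.31 FPKM in LB. CHS averaged 10.8, 16.9, 252, 742 and 3414 FPKM in LR, against 40.9, 41.9, 18.3, 13.1 and 39.3 FPKM in LB. In the CHS means LR was thus below LB at S1 as well as at S2, and above it from S3 on. OMT was already higher in LR at S2 and averaged 113, 30.1, 686, 2952 and 10238 FPKM in LR, against 12.7, 3.72, 0.60, 0 and 0.12 FPKM in LB (S2 departure -6.76, SE 0.83, adjusted p = 1.6e-05). Its unigene was picked over another candidate for a higher LR to LB ratio at S4 and S5, which favours this departure. In DFR, OMT and the DFR paralogue the LR mean was lower at S2 than at S1, S3, S4 or S5. GST had a departure of -4.67 (SE 0.30, adjusted p = 6.1e-10), with 5.89, 5.52, 124, 379 and 1018 FPKM in LR and means of 0 in LB at every stage but S2, where it averaged 0.12 FPKM.

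Of the 16 tested tyrosine unigenes 7 departed upward, among them those with the highest differences at S2. TRINITY_DN101468_c7_g3 averaged 631, 307, 42.9, 12.8 and 7.69 FPKM from S1 to S5 in LR, against 733, 0.47, 0.33, 0.23 and 0.71 FPKM in LB (S2 departure 6.12, SE 1.18, adjusted p = 0.0025). TRINITY_DN75505_c2_g2 averaged 828, 325, 59.4, 18.3 and 26.1 FPKM in LR, against 647, 1.52, 0.98, 1.46 and 0.56 FPKM in LB (S2 departure 4.78, SE 0.94, adjusted p = 0.0028). In these means both species were high at S1, and at S2 LR was. The calls were lost without LR2-2 and without LB2-2 in both, and each was lost under 3 of 14 alternatives. CAD unigene TRINITY_DN94308_c2_g4 also departed upward, with 10.9, 8.27, 1.79, 1.33 and 0.033 FPKM in LR, against 46.1, 1.01, 0.23, 0.43 and 0.17 FPKM in LB (S2 departure 2.49, SE 0.43, adjusted p = 0.00085), a call lost with an offset of 0.1. Chitinase averaged 42.5, 67.9, 19.8, 6.74 and 0.25 FPKM in LR and was listed at 0 in LB at every stage (S2 departure 3.47, SE 0.75, adjusted p = 0.0067), a call lost under 7 of 14 alternatives. The study named chitinase for its high level in LR at the early stages of these libraries, which favours this call.

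In carotenoid biosynthesis TRINITY_DN92833_c0_g2 was lower in LR at S2 and departed downward. It averaged 0.44, 1.82, 14.5, 24.1 and 90.1 FPKM from S1 to S5 in LR, against 190, 136, 6.10, 3.93 and 16.9 FPKM in LB (S2 departure -6.01, SE 0.89, adjusted p = 0.00016). LR was below LB at S1 and S2 and above it from S3 on in these means. TRINITY_DN89104_c1_g3 of the plant-pathogen list, lower in LR at S2, averaged 0.060, 0.053, 82.7, 200 and 362 FPKM in LR, against 0.040, 6.26, 49.1, 29.4 and 15.98 FPKM in LB (S2 departure -5.53, SE 0.51, adjusted p = 2.0e-07). Fruits were staged by days after flowering, and whether S2 marks the same point of development in each was not tested. Over the tested unigenes, mean r with the S1 and the S3 libraries of the same species was 0.851 and 0.876 for LR2-1. It was 0.893 and 0.835 for LR2-2, and 0.897 and 0.850 for LR2-3. For LB2-1, LB2-2 and LB2-3 it was 0.850, 0.829 and 0.800 with S1, and 0.847, 0.877 and 0.885 with S3.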

How the data were processed

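RNA of fruit was sequenced in 30 libraries, from 3 trees of each of 2 species at each of 5 stages. The 6 S2 libraries are compared here. The paper names fewer shrubs than libraries for each species, so shrubs must recur across stages. Which shrub gave which library is not stated. The authors trimmed reads with Cutadapt, assembled them with Trinity, clustered transcripts with Corset and deposited FPKM per unigene and library, computed from uniquely located reads. The labels name Bowtie2, and the versions of Bowtie2, Trinity and Corset are not given in the sources used here. The deposited FPKM have 2 decimals and no stated scaling between libraries. Neither read counts nor unigene lengths were used here. The counting error of a value is thus unknown, and values of 0 are described as listed at 0. A low unigene, or one in the shallower LR libraries, is less precise.

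From the FPKM, log2 (FPKM + 0.5) was fitted for unigenes reaching an FPKM of 1 in 3 or more S2 libraries, with limma 3.58.1 in R 4.3.3 (lmFit, contrasts.fit, eBayes with trend and robust) and 1 mean for each of 10 groups over all 30 libraries, leaving 20 residual degrees of freedom. The study's count model could not be used on FPKM, so limma was run with the study's thresholds, a Benjamini-Hochberg adjusted p under 0.01 over all unigenes tested and an absolute difference of 1. Tests were two-sided. Means are given over 3 libraries and SE is that of the fit. The p-values rest on the spread between trees within groups, pooled over the 10 groups and adjusted by eBayes, not on the S2 trees alone. The fit took all 30 libraries as independent although shrubs recur across stages, and the effect of this was not tested. Replicate numbers do not pair trees of different species.

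Members, lists and the naming rule were chosen with earlier results of these data known. Named are unigenes the study ties to 1 gene, members of small enzyme classes and, in each list, those with the largest non-overlapping differences or S2 departures. For OMT, the candidate with the higher LR to LB ratio of mean FPKM at S4 and S5 was taken. Enzyme names and best matches are the study's annotation, whose gene names could not be checked. Alternatives were offsets of 0.1 and 1, other filters, 2 scalings, library weights, the replicate number as a block, only the 6 libraries, each S2 library left out and, chosen after seeing the data, sums over Trinity components. Code was tested on simulated data. No sequences were used here.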

Additional observations from a re-analysis of the deposited data

Results flagged for a closer look

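The difference between LR and LB at S2 departed from the mean of the differences at S1, S3, S4 and S5 in 1433 unigenes, by the limma test of that departure at an adjusted p under 0.01. The named unigenes below passed the same test, and each value is the departure on the log2 scale, above 0 where LR was further above LB at S2 than on average at the other stages. Of the 31, 18 lost their call under some of 14 alternatives. TRINITY_DN100868_c4_g1 lost it under 8, TRINITY_DN94597_c1_g1 and chitinase under 7, TRINITY_DN98167_c0_g4 under 6, and TRINITY_DN100868_c4_g3, TRINITY_DN94308_c2_g5, TRINITY_DN68847_c0_g1 and TRINITY_DN98167_c0_g1 under 4. Both tyrosine unigenes lost it under 3, TRINITY_DN77957_c4_g1 and TRINITY_DN109101_c0_g1 under 2, and TRINITY_DN80120_c0_g1, TRINITY_DN94308_c2_g4, TRINITY_DN71505_c0_g1, TRINITY_DN97458_c3_g1, TRINITY_DN61432_c0_g2 and TRINITY_DN71192_c10_g1 under 1.

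Of beta-glucosidases, TRINITY_DN80120_c0_g3 departed by -7.82, TRINITY_DN100868_c4_g3 by -5.79, TRINITY_DN77905_c2_g2 by -4.85 and TRINITY_DN80120_c0_g1 by -2.55. TRINITY_DN100868_c4_g1 of cyanoamino acid metabolism departed by -2.66 and TRINITY_DN94597_c1_g1 of galactose metabolism by -3.90. Of other phenylpropanoid unigenes, peroxidase TRINITY_DN65507_c0_g1 departed by -2.75, and CAD unigenes TRINITY_DN94308_c2_g4 and TRINITY_DN94308_c2_g5 by 2.49 and 2.41. The peroxidase averaged 0.1 FPKM in LR and 86.8 FPKM in LB at S1. At S2 it averaged 0.093 FPKM in LR and 25.6 FPKM in LB, so its gap was wide at S1 too.

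Of the flavonoid genes, DFR (TRINITY_DN65703_c4_g1) departed by -7.31, its paralogue (TRINITY_DN65703_c4_g2) by -7.05, LDOX (TRINITY_DN68066_c0_g2) by -7.09, OMT (TRINITY_DN94955_c0_g1) by -6.76 and CHS (TRINITY_DN73389_c1_g2) by -5.0. The study named these genes, and chitinase below, for their course over the stages of these libraries, so their departures are a description. The OMT unigene was also picked by its values at S4 and S5. In the flavone and flavonol list TRINITY_DN72626_c8_g1 departed by -8.13 and TRINITY_DN97458_c3_g1 by 2.76. TRINITY_DN72626_c8_g1 averaged 50.3, 21.1, 181, 549 and 2559 FPKM from S1 to S5 in LR, against 24.0, 39.1, 3.75, 0.11 and 0.15 FPKM in LB. TRINITY_DN97458_c3_g1 stayed below 1 FPKM in LR means, against 1.89, 4.85, 43.4, 123 and 105 FPKM in LB.

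Of the defence genes, GST (TRINITY_DN100219_c3_g1) departed by -4.67, chitinase (TRINITY_DN77127_c1_g3) by 3.47 and TRINITY_DN89104_c1_g3 of the plant-pathogen list by -5.53. In tyrosine metabolism TRINITY_DN101468_c7_g3 departed by 6.12 and TRINITY_DN75505_c2_g2 by 4.78. In carotenoid biosynthesis TRINITY_DN92833_c0_g2 departed by -6.01.

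In photosynthesis TRINITY_DN77957_c4_g1 departed by 1.98, and antenna unigene TRINITY_DN71505_c0_g1 by 3.13, with 38.2, 20.1, 2.13, 0.56 and 0.067 FPKM from S1 to S5 in LR, against 3.31, 0.44, 0, 0.11 and 0.083 FPKM in LB. TRINITY_DN68847_c0_g1 of starch and sucrose metabolism departed by 3.75, with 136, 138, 1.97, 1.19 and 0.41 FPKM in LR, against 307, 11.1, 0.48, 0.14 and 0.27 FPKM in LB. In amino sugar metabolism TRINITY_DN98167_c0_g1, TRINITY_DN98167_c0_g4 and TRINITY_DN109101_c0_g1 departed by 2.01, 1.97 and -4.09. The first and second share a component, which differed by 0.014 at S2 and was not called (adjusted p = 0.97). TRINITY_DN66794_c2_g3 of linoleic acid metabolism departed by 3.52, with 4.02, 4.47, 1.68, 0.55 and 0.88 FPKM in LR, against 0.87, 0.24, 1.67, 3.48 and 10.6 FPKM in LB. TRINITY_DN61432_c0_g2 of hormone signalling departed by -2.42, and TRINITY_DN71192_c10_g1, which the annotation used here does not name, by -4.02.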

How the results depend on the processing

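Of 101 named unigenes called at S2, 76 kept their call under all 15 alternatives other than component sums and 25 lost it under some. Of 31 named S2 departures, 13 kept theirs under all 14 alternatives. Counts called at S2 were 25204 to 37795 over the other settings, while sums over Trinity components, with 47259 tested, gave 16222 (34.3%). Leaving out 1 S2 library gave 25417 to 27473 calls at S2 and 780 to 1433 S2 departures, the lowest without LR2-2. Without LR2-1 there were again 1433 departures, but 828 were above and 605 below. Library weights gave 3071 departures, 1824 of them above the average of the other stages. The cause of these changes was not tested.

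Component sums turned the sign of the S2 difference in CAD TRINITY_DN94308_c2_g4 and TRINITY_DN94308_c2_g5 (-0.36 each) and TRINITY_DN79928_c2_g2 (-1.64), in PAL TRINITY_DN66948_c1_g4 (-2.05), TRINITY_DN65745_c2_g1 (-0.10) and TRINITY_DN100508_c2_g5 (-0.95), in TRINITY_DN97146_c3_g6 (0.24), TRINITY_DN88632_c1_g2 (0.23) and HCT TRINITY_DN89303_c1_g3 (2.85), and in TRINITY_DN101266_c4_g3 (-1.37), TRINITY_DN101344_c3_g1 (1.14), TRINITY_DN86061_c0_g4 (2.70) and TRINITY_DN91381_c1_g1 (0.082). They ended the call with the same sign in 20 other named unigenes, among them TRINITY_DN94597_c2_g1 and TRINITY_DN94597_c2_g3 (-1.62 each, adjusted p = 0.081) and TRINITY_DN98167_c0_g1 and TRINITY_DN98167_c0_g4 (0.014 each, adjusted p = 0.97), and gave LDOX a call (-1.10, adjusted p = 0.0067). In 84 of 118 named unigenes the sign and the call stayed.

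The median r between LR and LB libraries was 0.36 with an offset of 0.1, 0.557 with an offset of 1 and 0.645 with unigenes above 0 kept. It was 0.494 to 0.514 with 1 library left out.

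Replicate numbers did not pair trees: deviations of same-numbered LR and LB libraries had r of -0.18, -0.05 and -0.05. With the replicate block 9788 unigenes were higher and 19064 lower in LR, and 623 S2 departures were above and 828 below. The S2 contrast rests on 3 trees a species, and an FPKM without its counts leaves the precision of low unigenes unknown.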
